A study of Mus musculus with 6 samples.

Results

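Mouse mammary cells at 2 ages were compared for 34 genes of cholesterol and fatty acid synthesis. The list comprised 16 genes of sterol synthesis, 13 of fatty acid synthesis and 5 that encode, regulate or respond to the sterol regulatory element binding proteins (SREBPs). The genes were taken from a fixed list of symbols, and their probes were found through the RefSeq accession of each probe. All 34 genes were represented, by 48 probes, among 20660 genes that the probes of the array could be matched to. Of these, 33 genes (46 probes) passed the filter on low signal and were tested among 15734 genes (20448 probes). Gpam, the mitochondrial acyltransferase that starts triglyceride assembly, was the member that did not pass, with log2 intensities of 5.77, 5.77 and 5.96 in fetal cells and 5.73, 5.32 and 5.66 in adult basal cells. These lay close to the filter's boundary of 5.95 and were well above background on all 6 arrays, so Gpam was measured but not tested.

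RNA came from freshly sorted, uncultured mammary cells of C57Bl6J females and was hybridized to 1-colour Agilent SurePrint G3 Mouse GE arrays, on which the brightness of a spot reports the amount of labelled cRNA bound to a probe. The fetal population (3 biological replicates) was taken at embryonic day 18.5 and was CD31-CD45-Ter119-EpCAM++CD49f+. The adult basal population (3 biological replicates) was from mice 8 to 12 weeks old and was CD31-CD45-Ter119-BP-1-EpCAM+CD49f+. No transgene, knockout or treatment was involved. The tissue was digested briefly for fetal glands and overnight for adult glands, so that age, sort gate and digestion cannot be told apart. Each of 2 slides held arrays of both populations: fetal replicate 1 with adult replicates 1 and 3, and fetal replicates 2 and 3 with adult replicate 2. On each array 76.4% to 83.3% of the probes exceeded background clearly by the scanner software’s test ("well above background").

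Cholesterol is built from acetyl-CoA through mevalonate, farnesyl diphosphate, squalene and lanosterol, and fatty acids are built from the same precursor by acetyl-CoA carboxylase and fatty acid synthase, then lengthened by elongases and desaturated. SREBP-2 mainly drives the sterol genes and SREBP-1 the fatty acid genes. SCAP carries both proteins out of the endoplasmic reticulum when sterols are low, and INSIG proteins hold them back when sterols are high. In the mammary gland these pathways are best known for the milk fat that luminal cells make during lactation, while the basal cells are contractile.

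Values below are quantile-normalized log2 intensities, and a difference is fetal minus adult basal, so that 1 unit is 2-fold. A gene was called where the Holm-adjusted p from limma did not exceed 0.05 and the difference was at least 2-fold, and where a gene had several probes the brightest that passed the filter stands for it. Levels of different probes cannot be set against each other, and fewer cells expressing a gene and less RNA per cell cannot be told apart in these bulk samples.

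Of the 33 tested members, 9 were called higher in the fetal population and 1 in the adult basal population, against 6.03% and 5.21% of all tested genes. The 9 were Hmgcs1, Pmvk, Mvd and Dhcr7 of sterol synthesis, Elovl5, Elovl6 and Scd2 of fatty acid synthesis, and Insig1 and Stard4 of the regulators. The 1 gene called higher in adult basal cells was Me1. When p-values were adjusted by Benjamini and Hochberg's method instead, 20 members were called higher in the fetal population and 2 (Me1 and Lpin1) in the adult basal population, where the shares over all tested genes were 15.8% and 13.9%. The fitted difference was above 0 in 28 of 33 members and in 47.5% of all tested genes. With the mean of a gene's probes it was above 0 in 27 members, because Fdft1, whose probes disagree, turned. The median difference was 1.22 over the members and -0.04 over all tested genes. In all 33 members the 3 arrays of one population lay above the 3 arrays of the other, as they did in 68.4% of all tested genes.

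Calls and medians were also counted for each group of members. Among sterol synthesis genes 4 of 16 were called, all higher in fetal cells, the median difference was 1.92, and 12, including Fdft1 by its brighter probe, were called higher by Benjamini-Hochberg adjustment. Among fatty acid synthesis genes 3 of 12 were called higher and 1 lower, with a median difference of 0.90, and Benjamini-Hochberg adjustment gave 6 higher and 2 lower. Among regulators 2 of 5 were called higher under either adjustment, with a median of 0.73, and the values of the other 3 lay between -0.55 and 0.73. No test compared the groups. On slide 1 the medians were 1.71 for sterol synthesis, 0.90 for fatty acid synthesis and 0.88 for regulators, and on slide 2 they were 2.16, 1.0 and 0.75.

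**Figure D1:**
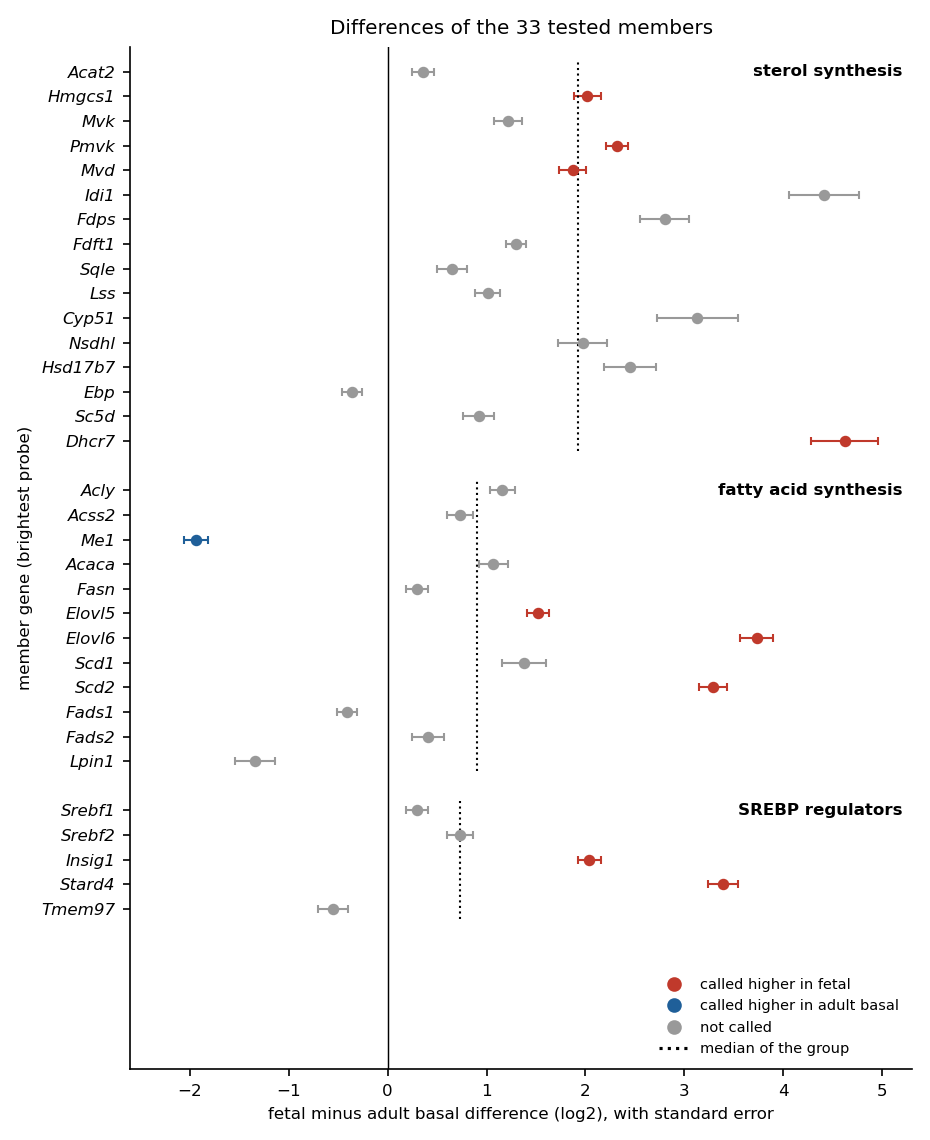
Difference between fetal and adult basal cells (log2, x axis) for the 33 tested members, 1 probe each, with the standard error of the fit from 3 arrays per population. Red points were called higher in fetal cells (9 genes), the blue point higher in adult basal cells (Me1), grey points were not called, and dotted lines mark the group medians of 1.92, 0.90 and 0.73.

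Sequences upstream of the gene start are shown for the called members that have exactly 1 start in the RefSeq promoter table (GRCm38.p6), because SREBPs act through short elements close to the start. Each run holds the 250 bases before the start, 5′ to 3′ on the gene's strand. Capitals mark matches, on either strand, to a sterol regulatory element (TCACNCCAC), an E-box (CACGTG), which SREBPs also bind, or a CCAAT box (CCAAT, which reads ATTGG on the other strand), the site of NF-Y, a common partner of SREBPs. No match overlapped another. The 5 windows are Hmgcs1 at chr13:119690101-119690350 on the plus strand, Mvd at chr8:122443423-122443672 on the minus strand, and, on the plus strand, Elovl5 at chr9:77917115-77917364, Elovl6 at chr3:129532136-129532385 and Insig1 at chr5:28071162-28071411.
Hmgcs1: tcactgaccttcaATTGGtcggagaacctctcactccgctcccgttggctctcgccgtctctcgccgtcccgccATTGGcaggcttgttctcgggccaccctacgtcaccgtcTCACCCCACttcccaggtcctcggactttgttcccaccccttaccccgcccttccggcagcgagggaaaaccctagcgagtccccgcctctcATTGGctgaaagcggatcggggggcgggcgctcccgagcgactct
Mvd: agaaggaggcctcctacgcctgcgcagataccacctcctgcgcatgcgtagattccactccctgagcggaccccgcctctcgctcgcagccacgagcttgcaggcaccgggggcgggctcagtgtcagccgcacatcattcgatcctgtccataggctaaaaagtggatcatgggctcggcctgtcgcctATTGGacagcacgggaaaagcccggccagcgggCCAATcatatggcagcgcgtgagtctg
Elovl5: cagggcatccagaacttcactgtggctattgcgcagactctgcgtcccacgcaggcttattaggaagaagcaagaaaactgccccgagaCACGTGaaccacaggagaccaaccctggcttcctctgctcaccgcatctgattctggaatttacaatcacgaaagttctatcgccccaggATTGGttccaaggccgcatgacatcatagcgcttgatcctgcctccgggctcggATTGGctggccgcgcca
Elovl6: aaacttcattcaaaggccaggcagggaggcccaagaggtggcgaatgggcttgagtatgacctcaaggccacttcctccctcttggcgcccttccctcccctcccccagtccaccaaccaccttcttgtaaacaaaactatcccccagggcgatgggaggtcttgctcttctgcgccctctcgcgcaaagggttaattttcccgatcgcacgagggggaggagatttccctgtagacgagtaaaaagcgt
Insig1: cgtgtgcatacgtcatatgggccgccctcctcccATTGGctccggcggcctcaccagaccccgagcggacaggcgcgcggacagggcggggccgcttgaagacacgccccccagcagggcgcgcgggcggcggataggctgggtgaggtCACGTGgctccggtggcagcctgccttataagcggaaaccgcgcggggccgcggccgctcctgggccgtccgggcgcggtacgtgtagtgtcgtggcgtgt

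Hmgcs1 carried the sterol element 137 bases before its start, with 3 CCAAT boxes in the printed window. Insig1 carried an E-box 101 bases and a CCAAT box 216 bases before its start, and Elovl5 an E-box at 161 bases and CCAAT boxes at 71 and 17 bases. Mvd held 2 CCAAT boxes and neither other motif, and Elovl6 held none of the 3. The table listed 27 of the 34 members, and over the full 300 bases (250 before and 50 after the start) the sterol element was found in 1 of the 27 (3.70%), compared with 1.44% of the 12503 tested genes listed there and 1.24% of all 32851 promoters. The E-box was found in 5 of 27 members (18.5%, namely Hsd17b7, Sc5d, Dhcr7, Elovl5 and Insig1), in 10.7% of tested genes and in 7.15% of all promoters. The CCAAT box was found in 22 of 27 members (81.5%), in 42.4% of tested genes and in 37.4% of all promoters. By group, it was present in 12 of 13 sterol synthesis genes, 6 of 10 fatty acid synthesis genes and all 4 listed regulators. A match of letters is a description of the window and not a binding site, and a gene with several starts had more windows in which a match could occur.

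**Figure D2:**
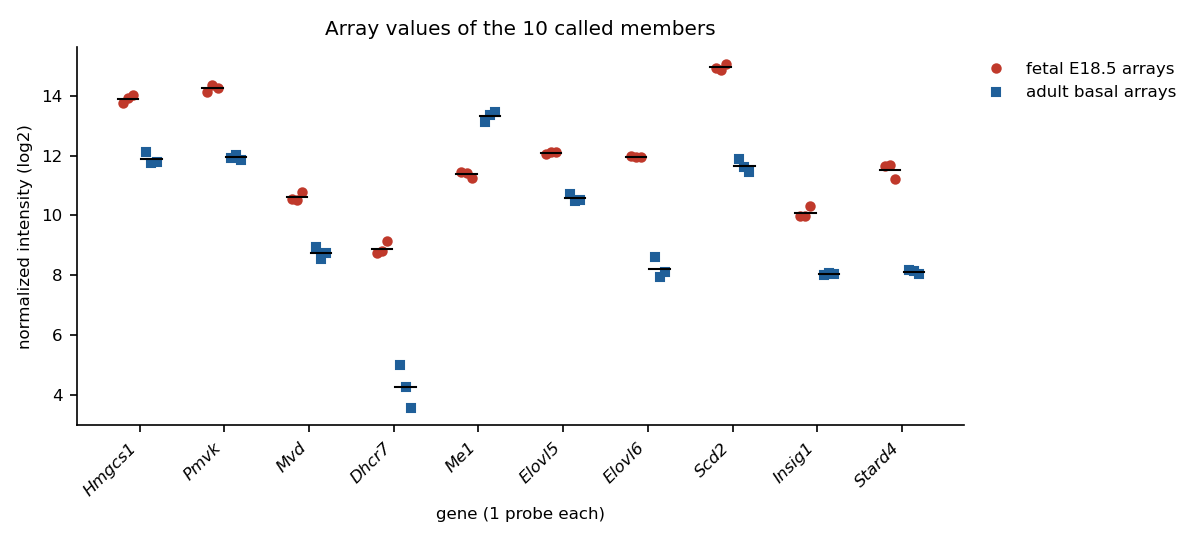
Normalized log2 intensity (y axis) of the 10 called members on each fetal array (red circles) and adult basal array (blue squares), with black bars at the means of 3 arrays. In 9 genes all fetal arrays lay above all adult arrays, by 1.52 (Elovl5) to 4.62 (Dhcr7, 2.67 with the normexp background correction) on average, and Me1 lay lower in fetal cells by a mean difference of -1.94.

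For the steps from acetyl-CoA to farnesyl diphosphate, 3 of 7 genes were called, all higher in fetal cells, and the fitted difference was above 0 in all 7. Over all tested genes, 6.03% were called higher in fetal cells and 47.5% had a difference above 0. Hmgcs1, the synthase that makes HMG-CoA, had values of 13.77, 13.91 and 14.02 in fetal cells and 12.12, 11.76 and 11.78 in adult basal cells. The groups did not overlap, and the difference was 2.02 ± 0.14 (SE, 4.04-fold, limma, Holm-adjusted p = 0.022). Pmvk, which adds the second phosphate to mevalonate, had values of 14.13, 14.36 and 14.26 in fetal cells and 11.92, 12.03 and 11.86 in adult basal cells. Its replicates were among the closest of the sterol genes, and the difference was 2.32 ± 0.11 (SE, limma, Holm-adjusted p = 0.0017). The second Pmvk probe gave 2.63 ± 0.14 (SE, limma, Holm-adjusted p = 0.0041). Mvd, which decarboxylates the product to isopentenyl diphosphate, had values of 10.54, 10.53 and 10.77 in fetal cells and 8.95, 8.54 and 8.73 in adult basal cells. The groups were again apart, by 1.87 ± 0.14 (SE, limma, Holm-adjusted p = 0.039).

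The 4 other genes of this stretch were not called, some with a small difference and some with a large difference and a wide spread. Idi1, the isomerase of isopentenyl diphosphate, had one of the widest gaps of all members, 4.41 ± 0.35 (SE), with fetal values of 13.05, 13.20 and 13.13 and adult values of 9.45, 8.82 and 7.88 (limma, Holm-adjusted p = 0.072). The SD was 0.08 over the fetal arrays and 0.79 over the adult arrays (n = 3 each). Fdps, farnesyl diphosphate synthase, showed the same arrangement, with fetal values of 14.14, 14.19 and 14.27 against 12.01, 11.13 and 11.06 (difference 2.80, limma, Holm-adjusted p = 0.14). In both genes adult replicate 1 was the highest adult array. Mvk, mevalonate kinase, differed by 1.22 on its brighter probe and 2.38 on its dimmer probe, and Acat2, the cytosolic thiolase at the head of the pathway, by 0.36, with neither passing the Holm threshold.

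Beyond farnesyl diphosphate lies the route through squalene and lanosterol to cholesterol. Of its 9 genes 1 was called, higher in fetal cells, where the share over all tested genes was 6.03%. The fitted difference was above 0 in 8 of the 9, and in 47.5% of all tested genes. With Benjamini-Hochberg adjustment 6 of these 9 genes and 6 of the 7 before them were called higher (15.8% of all tested genes). These counts take Fdft1 by its brighter probe, which its other probe contradicts. Dhcr7, the reductase of the last step of one branch, had values of 8.73, 8.80 and 9.14 in fetal cells and 5.0, 4.26 and 3.56 in adult basal cells. On adult replicate 3 it was not well above background, so the adult level is near the limit of detection. The difference was 4.62 ± 0.34 (SE, 24.5-fold, limma, Holm-adjusted p = 0.037). The difference was 2.67 under normexp, which starts from other spot intensities and adds an offset of 50, and 3.76 when 16 was added before taking logs, and it was called in both. Cyp51, the lanosterol demethylase, differed by 3.13 ± 0.41 (SE), with fetal values of 10.36, 10.18 and 10.33 and adult values of 7.97, 6.14 and 7.36. Its adult SD of 0.93 (n = 3) was the widest among the members' brightest probes, and its Holm-adjusted p in limma was 1. Nsdhl, a decarboxylating dehydrogenase, gave 1.97 and 1.65 on its 2 probes, the dimmer of which was not well above background on 1 adult array. Lss, Sc5d and Sqle, which encode lanosterol synthase, lathosterol oxidase and squalene epoxidase, had smaller differences of 1.01, 0.92 and 0.65. Ebp, the sterol isomerase, was the sterol gene with a fitted difference below 0, at -0.36 ± 0.10 (SE, limma, Benjamini-Hochberg-adjusted p = 0.019, under 2-fold).

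For 2 genes of this stretch the probes gave different calls. Hsd17b7, the sterol ketoreductase, had a brighter probe with fetal values of 9.07, 9.08 and 9.47 and adult values of 7.32, 6.69 and 6.26 (difference 2.45, limma, Holm-adjusted p = 0.48). Its dimmer probe read 8.61, 8.42 and 8.66 against 6.85, 7.0 and 7.01, a smaller difference of 1.61 that was called (limma, Holm-adjusted p = 0.026). The direction was shared, and the adult SD was 0.53 on the first probe and 0.09 on the second (n = 3). Fdft1, squalene synthase, had probes that went opposite ways. The brighter probe read 12.07, 12.15 and 12.19 in fetal cells and 10.96, 10.80 and 10.78 in adult basal cells (difference 1.30, limma, Holm-adjusted p = 0.061). The dimmer probe read 5.85, 5.93 and 5.84 in fetal cells and 7.35, 7.47 and 7.49 in adult basal cells (difference -1.57, limma, Holm-adjusted p = 0.012). Neither probe's groups overlapped, so Fdft1 has no single direction on this array, and the mean of its probes was -0.14.

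In fatty acid synthesis the genes called higher in fetal cells were 2 elongases and a desaturase, and Me1 was called higher in adult basal cells, while Acly, Acaca and Fasn were not called with Holm's adjustment. Elovl6, the elongase of 16-carbon chains, had values of 11.99, 11.95 and 11.94 in fetal cells and 8.62, 7.95 and 8.11 in adult basal cells. The fetal arrays were nearly identical, and the difference was 3.73 ± 0.17 (SE, 13.3-fold, limma, Holm-adjusted p = 0.0017). Elovl5, the elongase of polyunsaturated chains, had values of 12.06, 12.12 and 12.12 in fetal cells and 10.73, 10.49 and 10.53 in adult basal cells. Its groups were apart by 1.52 ± 0.11 (SE, limma, Holm-adjusted p = 0.027).

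Of the 4 desaturases of the list, 1 was called. Scd2, a stearoyl-CoA desaturase, had values of 14.93, 14.87 and 15.05 in fetal cells and 11.90, 11.62 and 11.45 in adult basal cells. The difference of 3.29 ± 0.14 (SE, 9.78-fold) had the smallest adjusted p of all members (limma, Holm-adjusted p = 8.0e-04). Scd1, the paralogue of the same activity, read 9.78, 9.69 and 9.70 in fetal cells against 8.89, 8.03 and 8.11 in adult basal cells, a difference of 1.38 ± 0.22 (SE) that was called only with Benjamini-Hochberg adjustment (limma, adjusted p = 0.0013). The difference between the 2 paralogues was not tested, and probes of close paralogues may share some signal. Fads1 and Fads2, the desaturases of polyunsaturated fatty acids, had small values of opposite sign, -0.41 and 0.41, which were not called under either adjustment.

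Among enzymes that supply or build the chain, Acly, which makes cytosolic acetyl-CoA from citrate, differed by 1.16 and 1.02 on its 2 probes. Acaca, acetyl-CoA carboxylase, differed by 1.07, 0.89 and 0.68 on its 3 probes, and both genes were called with Benjamini-Hochberg adjustment alone, on both Acly probes and on the brightest Acaca probe. Fasn, fatty acid synthase, differed by 0.30 ± 0.11 (SE). Fasn read 8.73, 8.74 and 8.74 in fetal cells and 8.55, 8.27 and 8.48 in adult basal cells, so the populations were apart but by only 1.23-fold (limma, Benjamini-Hochberg-adjusted p = 0.045, Holm-adjusted p = 1). Acss2, which activates acetate, had probes of opposite sign. Its brighter probe read 9.68, 9.73 and 9.62 against 8.74, 9.14 and 8.97 in adult basal cells (0.73 ± 0.13, SE). Its dimmer probe read 8.27, 8.30 and 8.24 against 8.31, 8.53 and 8.62 (-0.21 ± 0.11, SE). Neither was called.

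Me1, the cytosolic malic enzyme that supplies NADPH, went the other way. Its brightest probe read 11.45, 11.43 and 11.26 in fetal cells and 13.13, 13.36 and 13.46 in adult basal cells. The difference was -1.94 ± 0.12 (SE, 3.84-fold lower in fetal cells, limma, Holm-adjusted p = 0.015), and the other 2 probes were called too, at -2.11 and -1.64. Lpin1, a phosphatidate phosphatase of triglyceride synthesis, differed by -1.34 ± 0.20 (SE), with fetal values of 7.91, 8.23 and 7.80 and adult values of 8.93, 9.48 and 9.57 (limma, Benjamini-Hochberg-adjusted p = 7.6e-04). These were the 2 members with a difference of more than 2-fold towards adult basal cells on their brightest probes.

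Of the regulators, the genes called were a feedback inhibitor of SREBP processing and a sterol carrier, and not the SREBP genes. Insig1, which retains the SCAP-SREBP complex, had values of 9.99, 9.97 and 10.31 in fetal cells and 8.02, 8.07 and 8.06 in adult basal cells. The adult arrays were nearly identical (SD 0.02, n = 3), and the difference was 2.04 ± 0.12 (SE, 4.11-fold, limma, Holm-adjusted p = 0.0099). Stard4, a cytosolic carrier of cholesterol, had values of 11.66, 11.68 and 11.22 in fetal cells and 8.19, 8.16 and 8.03 in adult basal cells. Its difference was 3.39 ± 0.15 (SE, 10.5-fold, limma, Holm-adjusted p = 0.0011), and its dimmer probe gave 3.11 (limma, Holm-adjusted p = 0.044).

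The transcripts of the SREBPs themselves had smaller differences. Srebf1 read 8.96, 9.14 and 9.12 in fetal cells and 8.86, 8.63 and 8.84 in adult basal cells, a difference of 0.30 ± 0.11 (SE, limma, Benjamini-Hochberg-adjusted p = 0.052). Srebf2 read 10.81, 10.43 and 10.55 against 9.97, 9.74 and 9.89 on its brighter probe, a difference of 0.73 ± 0.13 (SE), and 0.33 on a dimmer probe whose groups overlapped. Neither gene reached 2-fold. Tmem97, a sterol-responsive membrane protein that binds NPC1, differed by -0.55 ± 0.15 (SE) and was not called. The arrays measure transcripts only, and SREBP processing was not measured.

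Genes of the same pathways outside the 34 were taken from lists of known roles. Over all tested genes, 6.03% were called higher and 5.21% lower in fetal cells (15.8% and 13.9% with Benjamini-Hochberg adjustment). Of 6 tested further genes of sterol synthesis, 3 were called higher in fetal cells and none lower, with a median difference of 1.99. Tm7sf2, a sterol reductase, read 11.13, 11.32 and 11.29 in fetal cells and 8.78, 8.38 and 8.51 in adult basal cells. The groups were apart by 2.69 ± 0.13 (SE, 6.45-fold, limma, Holm-adjusted p = 0.0028). The dimmer Tm7sf2 probe gave a smaller difference of 0.80 (1.74-fold), which was not called under either adjustment. With Benjamini-Hochberg adjustment 4 of the 6 genes were called higher and 1 lower, Ggps1, which makes geranylgeranyl diphosphate, at -1.04 (limma, adjusted p = 2.2e-04). The others called with Holm's adjustment were Lbr, which catalyses the same reduction, at 1.51, and Acat1, at 2.48, a mitochondrial thiolase known mainly for ketone body and isoleucine metabolism. The dimmer Lbr probe gave 1.84 and was called with Benjamini-Hochberg adjustment alone. Of 12 further genes of SREBP control, including Scap, Insig2 and the proteases of SREBP cleavage, 1 was called, Trib1, at 2.46, and the median was -0.38. With Benjamini-Hochberg adjustment 1 was called higher and 2 lower in fetal cells.

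Genes that take up, store or export cholesterol were split in direction. Of 11 tested, 1 was called towards fetal cells and 3 towards adult basal cells (2 and 4 with Benjamini-Hochberg adjustment). Scarb1, a receptor for lipoprotein cholesterol, read 12.19, 12.11 and 12.29 in fetal cells against 10.08, 10.08 and 9.94 in adult basal cells (difference 2.16, limma, Holm-adjusted p = 0.0021). Its dimmer probe gave 1.21 (limma, Holm-adjusted p = 0.78). Soat1, which esterifies cholesterol for storage, read 4.71, 4.11 and 5.14 in fetal cells against 8.78, 8.69 and 8.76 in adult basal cells (difference -4.09, limma, Holm-adjusted p = 0.0086). Apoe, a lipoprotein component, differed by -3.60 and Npc1, which moves cholesterol out of lysosomes, by -2.56.

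**Figure D3:**
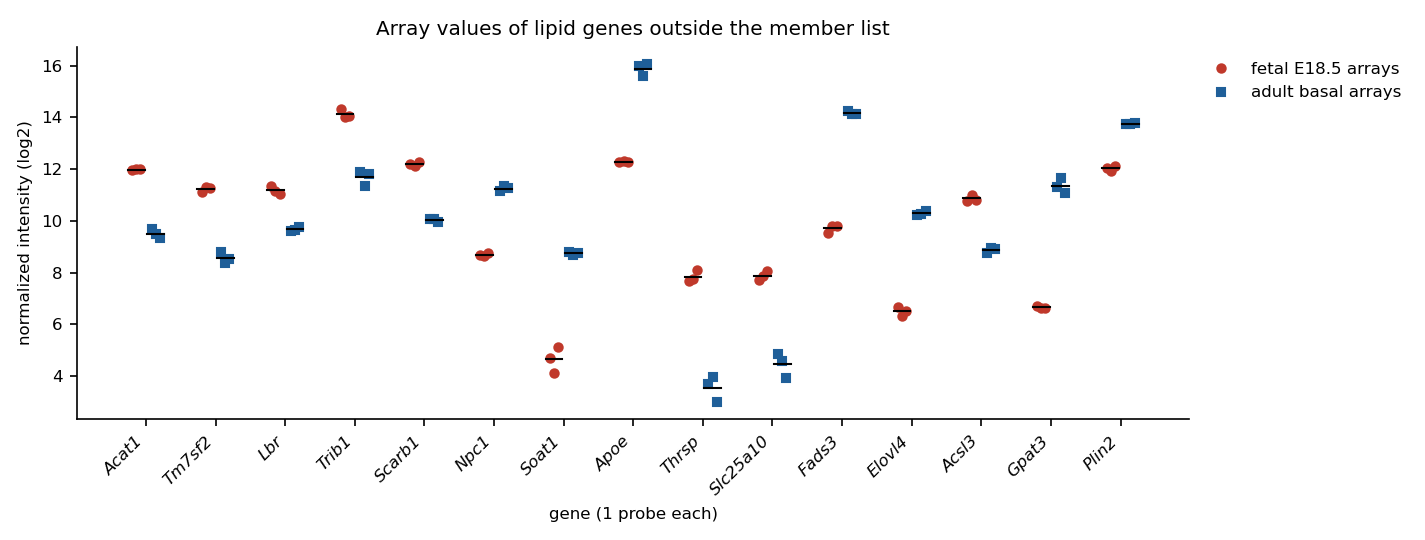
Normalized log2 intensity (y axis) of 15 lipid genes outside the member list on each fetal array (red circles) and adult basal array (blue squares), 1 probe per gene, with black bars at the means of 3 arrays. Acat1, Tm7sf2 and Scarb1 lay higher in fetal cells, and Soat1, Apoe, Npc1, Fads3, Elovl4 and Gpat3 lay lower.

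Of 21 further genes of fatty acid synthesis, 2 calls were towards fetal cells and 3 towards adult basal cells (5 and 3 with Benjamini-Hochberg adjustment), with a median difference of -0.03. Fads3, a desaturase encoded beside Fads1 and Fads2, read 9.53, 9.81 and 9.79 in fetal cells against 14.26, 14.13 and 14.13 in adult basal cells (difference -4.46, 22.1-fold, limma, Holm-adjusted p = 2.7e-05). Elovl4, the elongase of very long chains, was lower in fetal cells by a difference of -3.80 on one probe and -4.25 on another. Elovl4 and Fads3 therefore opposed Elovl5, Elovl6 and Scd2 in direction. Thrsp, a lipogenic nuclear protein, read 7.66, 7.76 and 8.12 in fetal cells against 3.69, 3.96 and 3.00 (difference 4.30), with 1 of the 3 adult arrays well above background. Slc25a10, the mitochondrial dicarboxylate carrier, differed by 3.43, with 2 adult arrays well above background.

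Of 16 genes of acyl-CoA and glycerolipid synthesis, 1 was called in each direction (3 higher and 2 lower in fetal cells with Benjamini-Hochberg adjustment): Acsl3, an acyl-CoA synthetase, at 1.98, and Gpat3, a glycerol-3-phosphate acyltransferase, at -4.68 (25.7-fold). These counts lie near the shares over all tested genes, 6.03% higher and 5.21% lower in fetal cells (15.8% and 13.9% with Benjamini-Hochberg adjustment). None of 13 genes of fatty acid oxidation was called on its brightest probe with limma and Holm's adjustment. An unadjusted p under 0.05 was found for 9 of them, and the share over all tested genes was not taken for that threshold. With Benjamini-Hochberg adjustment 4 were called, 1 higher and 3 lower in fetal cells (Cpt1a, for example, at -1.90), and the list's median difference was -0.24. The exception by probe was Ppargc1a, a coactivator of mitochondrial genes. Its brighter probe gave a difference of 5.0 ± 0.4 (SE, limma, Holm-adjusted p = 0.074). Its dimmer probe was at least 5.21-fold higher in fetal cells (limma, Holm-adjusted p = 1.3e-05). In that bound the adult arrays, on which this probe was not well above background, stand at the lowest signal that was. Of 10 tested genes of milk fat and milk protein, 1 was called in each direction, and 2 in each with Benjamini-Hochberg adjustment. The median difference of this list was -0.44. Csn2 (beta-casein), not well above background in adult basal cells, was at least 13.7-fold higher in fetal cells (limma, Holm-adjusted p = 2.0e-04). Plin2, which coats lipid droplets, was lower in fetal cells, with a difference of -1.72 (limma, Holm-adjusted p = 0.0077).

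**Figure D4:**
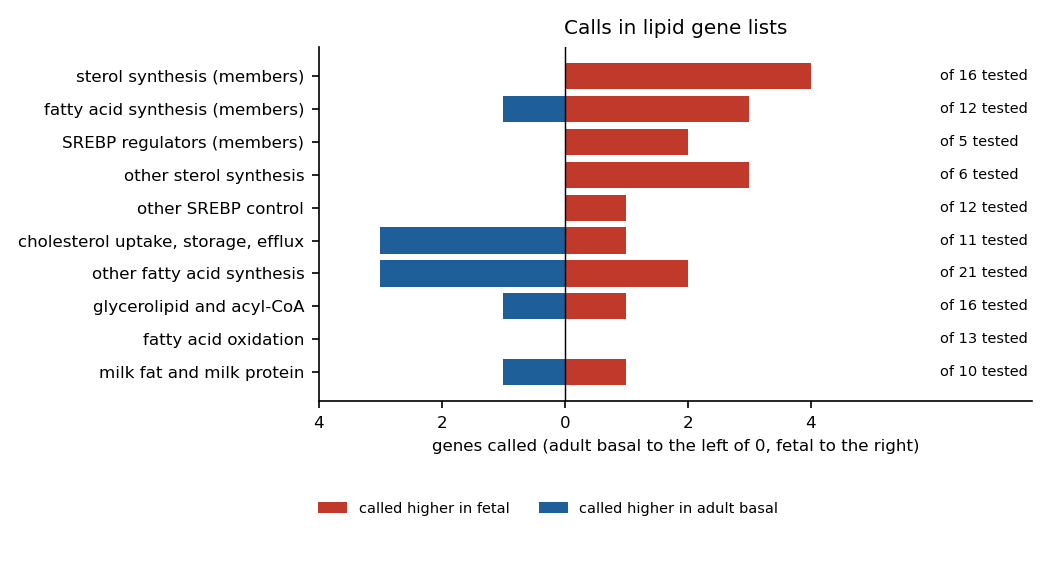
Number of genes called (x axis) in each list of lipid genes (y axis), with those higher in fetal cells to the right of 0 and those higher in adult basal cells to the left, and the number tested printed at the right edge. Calls are by the brightest probe with Holm's adjustment, under which 4 of 16 sterol synthesis members and 3 of 6 others were called, all higher in fetal cells, and cholesterol uptake, storage and efflux had 1 call against 3.

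Markers of cell types and of proliferation also separated the populations. The shares called over all tested genes were 6.03% higher and 5.21% lower in fetal cells (15.8% and 13.9% with Benjamini-Hochberg adjustment). Linear intensities were summed over 1 probe per marker (the brightest), and a sum follows its brightest probes, so it is compared between arrays and not between genes or lists. Of 10 basal markers, 8 were called higher in adult basal cells, and their summed linear intensity ranged from 76456 to 94883 in fetal cells and from 1191006 to 1228840 in adult basal cells, with the probe for Acta2, smooth muscle actin, the brightest. Of 12 luminal markers 5 were called higher in fetal cells and none lower, whereas Benjamini-Hochberg adjustment gave 5 higher and 3 lower (Esr1 at -3.58, Krt7 at -1.29 and Krt19 at -1.22), with sums of 212235 to 264401 and 130922 to 138735, and the Krt18 probe was the brightest. Esr1 was well above background on only 1 fetal array, so the size of its difference is not exact. Of 10 proliferation genes 9 were called higher in fetal cells, with sums of 106847 to 112537 and 16292 to 16498, the Pcna probe being the brightest. Every basal and luminal marker was well above background on at least 1 array of each population. The part of these differences in cell type and cell division in the differences of the lipid genes was not tested.

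Adipocytes and sebaceous cells, which make lipid, were checked in the same way. None of 12 tested adipocyte markers was called with limma and Holm's adjustment, and 2 were called with Benjamini-Hochberg adjustment, 1 in each direction. An unadjusted p under 0.05 was found for 6 of the 12 (share over all tested genes not taken). The sum over 13 adipocyte markers was 2666, 2431 and 6194 in fetal cells and 4442, 4270 and 4898 in adult basal cells. The Fabp4 probe was the brightest, and fetal replicate 3 stood apart. Adipoq, which defines adipocytes, read 5.62, 3.99 and 8.17 in fetal cells, well above background on 2 arrays, and all 3 adult arrays were not well above background. Without fetal replicate 3 the member medians were 1.83 for sterol synthesis, 0.92 for fatty acid synthesis and 0.75 for regulators.

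Of 7 tested sebaceous markers 1 was called in each direction (Plin5 higher and Soat1 lower in fetal cells), with Benjamini-Hochberg adjustment 3 were called higher, including Krt79 at 1.33 and Cidea at 1.57, and 1 lower, and Elovl3 lacked signal well above background throughout. The sums over 11 markers were 8042 to 9757 on fetal and 4782 to 5652 on adult arrays, with the Krt79 probe the brightest. Of 4 tested epidermal markers 1 was called, Krt10, at 1.47, and all 4 were called with Benjamini-Hochberg adjustment. Of these, 3 were higher in fetal cells, among them Krtdap at 4.11 and Krt1 at 1.95 (limma, adjusted p = 0.0026 and 6.1e-05). Sbsn was lower in fetal cells, at -1.51 (limma, Benjamini-Hochberg-adjusted p = 8.1e-05). Krtdap was well above background on only 2 adult arrays (adult SD 1.75), so the size of its difference is not exact. Ivl was not well above background in adult basal cells, with list sums of 2126 to 2440 and 2300 to 2857, and the Sbsn probe the brightest. Of 6 fibroblast markers Dcn was called higher in adult basal cells (2 were with Benjamini-Hochberg adjustment), the sums were 5435 to 7032 and 15556 to 25957, the Col1a2 probe was the brightest, and Dpt was not well above background in fetal cells. Of leukocyte and endothelial markers none was called by limma with Holm's adjustment among 6 and 5 tested. Of these, 1 and 3 had an unadjusted p under 0.05 (share over all tested genes not taken), and 1 and 3 were called with Benjamini-Hochberg adjustment, all higher in adult basal cells. Their sums were 26418 to 34636 and 24419 to 33844 for leukocytes (Itgam probe brightest), and 10830 to 12642 and 11473 to 13953 for endothelium (Kdr probe brightest, Tek not well above background in fetal cells). The part of these cell types in the lipid differences was not tested.

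The calls were unequal in how far they rested on single arrays. Pmvk, Elovl6, Scd2 and Stard4 were called whichever of the 6 arrays was left out, with limma's Holm-adjusted p no higher than 0.036, 0.044, 0.024 and 0.024. Mvd and Elovl5 were not called without any 1 of the 6 arrays (Holm-adjusted p of 0.079 to 0.47 and 0.072 to 0.43), which also reflects the smaller number of arrays. Hmgcs1 and Me1 were called in 1 of the 6 fits, and Dhcr7 and Insig1 in 2, with Holm-adjusted p up to 0.33, 0.21, 0.47 and 0.13. Without adult replicate 1, Idi1, Fdps and Nsdhl were called (limma, Holm-adjusted p = 0.037, 0.0021 and 0.030), and Idi1 was also called without adult replicate 3 (limma, Holm-adjusted p = 0.013). The number of members called was 10, 5 and 6 without adult replicates 1, 2 and 3, and 4, 4 and 5 without fetal replicates 1, 2 and 3. With slide as a block, 4 members were called, again Pmvk, Elovl6, Scd2 and Stard4. Within each slide all 33 differences of means had the same sign as over both. This had to follow, because the arrays of the populations did not overlap in any tested member, so it is no separate check of direction. In size, Hmgcs1, for example, differed by 1.82 on slide 1 and 2.21 on slide 2, and Me1 by -1.85 and -2.02.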

How the data were processed

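The member genes and the gene lists were chosen with earlier results of these data known. The authors hybridized 1 array per sample and quantified the images in Feature Extraction (Agilent, version 11.0.1.1), and the deposited processed signal is a background-subtracted linear intensity. They also deposited a table of log2 values, quantile normalized in GeneSpring, which served as an alternative. Its columns had medians of 7.11 and followed their own arrays (r of 0.971 to 0.995), so that it is uncentred and on the log2 scale. The RNA was labelled with a low-input Quick Amp kit per the labels, whereas the methods name its whole-transcript version.

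Here, control and outlier spots (104 to 326 per array) were left out, spots of a probe were averaged as log2, and the 6 arrays were quantile normalized. Accessions, without versions, were matched to RefSeq genes of GRCm38.p6. The scanner files carried no gene names, and 27235 of 55681 probes (48.9%) matched 1 gene. With the kind of filter the methods describe, but run on the matched probes alone, probes in the lowest of 3 k-means clusters (100 starts, seed 1, boundary 5.95) in both populations were removed (all 55681 probes were an alternative), and lmFit and eBayes of limma 3.58.1 (R 4.3.3) were applied to the remaining 20448 probes with Holm adjustment over all of them. All 34 members are accounted for, with every array's values for those called or with discordant probes, and other pathway genes are named where called (at most the 4 largest per list). Some genes of these pathways are not reported here. Tables and plots were made in Python 3.11.15 with pandas 2.3.3, numpy 2.4.6 and matplotlib 3.10.9. The fit was tested on simulated data. A bound ("at least") sets each dim array at the lowest signal among its probes well above background, or at the probe's own value if higher. The 3 arrays per population limit the precision, and p-values measure the spread between them. No spot was saturated. The 18 alternatives covered normalization, background correction, filters, adjustment, variance estimation, each array left out, blocks by replicate number and by slide, and averaging the probes of a gene that passed the filter. The normexp alternative used the median spot and local background intensities with an offset of 50.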

Additional observations from a re-analysis of the deposited data

How the results depend on the processing

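The direction of all 33 member differences was kept under all 18 alternatives except for Fdft1, which was -0.14 with the mean of a gene's probes, because its probes oppose each other. Filters, adjustment, variance estimation and the replicate block leave the differences themselves unchanged. As no member's arrays overlapped, the slide block and a left-out array could hardly turn a sign. Direction was open to change mainly under other normalization or background correction and averaging of probes. Called probes numbered 2270, and 6133 with Benjamini-Hochberg adjustment, 1182 with no low-signal filter, 1302 with the replicate block and 948 to 1949 with 1 array left out. The 9 members called higher in fetal cells became 20 with Benjamini-Hochberg adjustment, 5 over all probes whether or not matched, 4 with no low-signal filter, with the replicate block or with the slide block, and 4 to 9 with 1 array left out. The 1 member called higher in adult basal cells (Me1) became 2 with Benjamini-Hochberg adjustment, 0 with no low-signal filter, the replicate block or the slide block, and 0 to 1 with 1 array left out. More probes in the test raise the Holm-adjusted p by construction, and a block or a missing array leaves fewer degrees of freedom. The median difference of sterol synthesis members was 1.62 with the normexp correction and 1.79 to 2.05 with 1 array left out. That of fatty acid synthesis members was 0.65 with the mean of a gene's probes and 0.87 to 0.92 with 1 array left out, and that of regulators was 0.53 and 0.63 to 0.81. The cause of the normexp shift was not tested. Replicate numbers are shared between the populations but do not pair the arrays (correlations of deviations for same-numbered arrays of -0.032, 0.0933 and 0.0488), and with the number as a block 4 members were called. Signal over background limits Dhcr7, Thrsp, Slc25a10, Krtdap and the dimmer Nsdhl probe, each with an adult array not well above background. It also limits Esr1, which was well above background on only 1 fetal array. The Dhcr7 difference was 2.67 with the normexp correction, below that of Idi1, Elovl6, Scd2, Stard4 and Fdps there, and 3.76 with the offset of 16, below that of Idi1.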
